A study of Mus musculus with 94 samples.

Results

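Tubules of the medulla were set against tubules of the cortex in kidneys from entospletinib-treated mice on day 14 after ischemia-reperfusion injury (IRI). Segments were chosen by their labels as tubular, as belonging to this arm, and as medullary or cortical, and those under 200000 counts were left out. This kept 8 of the 9 tubular segments of the arm, 4 medullary and 4 cortical, out of 48 tubular segments and 94 segments in the series. Entospletinib inhibits SYK, a kinase that acts downstream of immune receptors, and C57BL/6 male mice received it before IRI of a single kidney and, per the methods of the study, at intervals until day 14. The vehicle arm received DMSO and the same injury, and the control kidneys were uninjured, although the labels do not say which agent, if any, the mice of the controls received. Every arm had 2 kidney sections, told apart by the label prefixes E1 and E2. The study profiled 2 kidneys per condition, and whether a prefix is a mouse of its own is not spelled out in the labels. Ages are not given in the sample labels.

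Digital spatial profiling (DSP) reads tissue on a slide. Probes hybridized to RNA in fixed kidney sections carry barcodes that UV light releases from a chosen area, and the released barcodes are sequenced and counted. A unique molecular identifier (UMI) lets each released barcode count once. Regions of interest were placed in cortex or medulla by the morphological stains, with glomeruli avoided, and cells positive for pan-cytokeratin, with or without CD10, formed the tubular segment. CD10 is a brush border enzyme of the proximal tubule. The 20175 probes carry identifiers that the files do not pair with genes. Levels are therefore given per probe, and the region labels could not be checked against marker genes.

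The cortex holds glomeruli, most of the convoluted proximal tubule, and the distal tubule. The outer medulla holds the straight part of the proximal tubule and the thick ascending limb of the loop of Henle, and the inner medulla holds thin limbs and collecting ducts. These tubule segments differ in the transporters and enzymes they make. The straight proximal tubule of the outer stripe is known as the site most easily damaged by ischemia. A difference between medullary and cortical segments can come from the tubule types present or from the RNA level in each type, and in segments of many cells these cannot be told apart.

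The 8 segments were deep. Medullary segments held 4750994 to 8541839 counts and cortical segments 4136936 to 7250641. The segment left out held 77621 counts and carried the same region number as a cortical segment that was kept. Segments of 1 region in 1 section were close to each other, with Pearson correlations across probes of 0.987 in both medullary pairs and 0.983 to 0.984 in the cortical pairs, on a log2 scale of normalized counts per 1000000 counts (CPM) plus 1. Between the sections they were 0.952 to 0.956 for medulla and 0.945 to 0.956 for cortex. Medullary and cortical segments of the same section correlated at 0.917 to 0.948, and those of different sections at 0.910 to 0.924. On the first principal component, with 45.0% of the variance, the medullary segments scored 7.4 to 35.2 and the cortical segments −41.4 to 1.7, and each section's medullary segments scored above its own cortical segments. The sections were offset along the first and the second component. On the second, with 32.7% of the variance, the segments of section E1 scored −4.2 to 37.8 and those of section E2 −29.3 to −3.1, so that the sections overlapped in range. Genes are not independent replicates, so these correlations describe the segments only. Because segments of a section share their tissue, counts were summed per section and region, and the section was the replicate (n = 2).

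In entospletinib-treated kidneys on day 14, 21 probes were higher in medullary tubules and 15 were higher in cortical tubules. They make up 0.178% of the 20175 probes tested, 0.104% in the medullary and 0.0743% in the cortical direction. Called probes had more than a 2-fold difference with an adjusted p under 0.05 (edgeR's quasi-likelihood test, Benjamini-Hochberg adjustment over all probes, section as a block). The 21 medullary probes had log2 fold changes between 1.00 and 1.52, with a median of 1.14. The 15 cortical probes had larger differences, from −1.03 to −3.02 on the log2 scale with a median of −1.28. Over all probes the median was 0.08, and the 5th and 95th percentiles were −0.37 and 0.39. The direction was the same in both sections for every called probe, and the difference exceeded 2-fold in both sections for 8 of the 21 and 12 of the 15. Of all 20175 probes, 10987 had the same direction in both sections and 288 exceeded 2-fold in both. The calls rest on these same sections, so this agreement follows in part from the call.

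The count depended on the sections. It was 15 without section E1 and 3 without section E2, and between 27 and 44 without any single segment. With trimmed mean (TMM) scaling in place of the upper quartile, 13 probes were higher in the medulla and 14 in the cortex. A fit on the 4 sums of this arm alone, where the spread was not shared with the other arms, called 412.

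The called probes were moderate in level. The medians of the mean CPM of the 21 medullary probes were 71.8 in medullary and 26.7 in cortical segments, and those of the 15 cortical probes were 28.4 in medullary and 80.1 in cortical segments. The median mean CPM of all probes was 24.97. In the region where they were lower, the medians of the called probes thus lay near the middle of the panel. The 4 probes named below as called stood under the panel median there, with means of 12.2, 15.8, 24.6, and 18.4 CPM. The level of the negative probes, which the files do not mark, was not measured. Segments did not overlap between the regions for 17 of the 21 and for all 15, against 5.01% of all probes with higher and 5.02% with lower medullary segments. The calls were made on these same segments, so the lack of overlap is no separate support.

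Probes were named only among called probes without overlap between the regions. Of these, RTS0066182 and RTS0062791 had the smallest p among the probes higher in the medulla. RTS0066182 stood at 26.8 and 29.1 CPM in the medullary segments of section E1 and at 42.7 and 33.3 CPM in those of section E2. Its cortical segments stood at 9.7 and 12.5 CPM in section E1 and at 13.5 and 12.9 CPM in section E2. All 4 medullary segments lay above all 4 cortical segments, and the lowest medullary value was 1.99 times the highest cortical value. The log2 fold change was 1.47 ± 0.18 (SE), with an adjusted p of 0.00151 by edgeR. RTS0062791 stood at 43.3 and 50.1 CPM in the medulla of section E1 and at 33.6 and 28.5 CPM in that of section E2, over cortical values of 17.5 and 16.7 CPM and of 14.6 and 14.3 CPM. Its regions did not overlap either, and within the medulla section E1 was the higher. The log2 fold change was 1.30 ± 0.18 (SE), with an adjusted p of 0.00551 by edgeR.

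By the same rule, which required no overlap, RTS0080800 and RTS0069692 had the smallest p among the probes higher in the cortex. RTS0080800 stood at 107.8 and 94.9 CPM in the cortical segments of section E1 and at 48.8 and 68.9 CPM in those of section E2. Its medullary segments stood at 29.6 and 26.4 CPM in section E1 and at 24.6 and 17.7 CPM in section E2. Every cortical segment was higher than every medullary segment, and section E1 was higher in both regions. The log2 fold change was −1.67 ± 0.17 (SE), a 3.18-fold higher level in the cortex, with an adjusted p of 0.000308 by edgeR. RTS0069692 stood at 56.7, 64.8, 45.9, and 64.8 CPM in the cortical segments and at 24.2, 21.1, 15.0, and 13.2 CPM in the medullary segments, the first pair of each from section E1. The regions again did not overlap, and the log2 fold change was −1.70 ± 0.21 (SE), with an adjusted p of 0.0026 by edgeR. Leaving out section E2 ended the call for RTS0066182, RTS0062791, and RTS0069692 (adjusted p by edgeR 0.139, 0.0859, and 0.227), and leaving out section E1 ended it for RTS0062791 (0.149). Thinning the sums to the lowest total also ended the call for RTS0062791 (log2 fold change 0.9964, adjusted p 0.143 by edgeR).

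**Figure D1:**
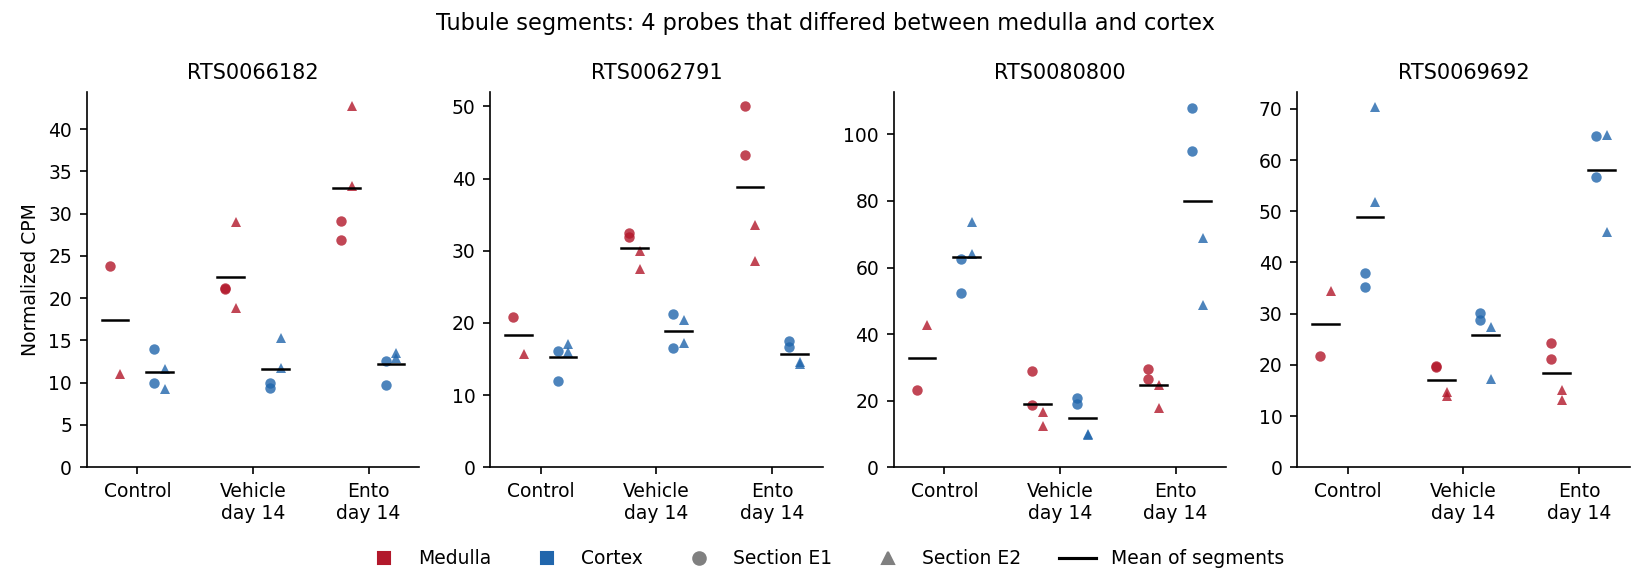
Normalized CPM (vertical axis, from 0) of the 4 named probes in every tubular segment used of the control, vehicle day 14, and entospletinib (Ento) day 14 arms, with circles for section E1, triangles for section E2, and a line at the mean of the segments. In the entospletinib arm the medullary (red) and cortical (blue) segments do not overlap for any of the 4, which the rule for naming required. RTS0080800 reaches at most 20.8 CPM in the cortex of the vehicle arm.

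The largest regional differences were not among the called probes. Of the 50 probes with the largest absolute log2 fold change, all at 2.85 or more, 1 was called. The median SE of their log2 fold changes was 1.07, against 0.21 for the called probes and 0.17 for all probes. For these 50 probes the 2 sections lay further apart in every other arm. Between the sections, their log2 medulla-cortex difference differed by a median of 0.77 in the entospletinib day 14 arm. It differed by 3.59 in the controls and 3.03 in the entospletinib day 7 arm. For the 36 called probes these medians were 0.33, 0.62, and 0.48. The remaining arms ranged from 0.94 (vehicle day 14) to 1.61 (vehicle day 1) for the 50 and from 0.24 to 0.36 for the 36. The 50 were chosen on their size in the entospletinib day 14 arm, which favors agreement of its sections. The calls used the spread over all arms, so low values for the 36 follow in part from the call.

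A wider list was therefore described without a test, set after the values were seen. In both sections 127 probes were more than 2-fold higher in the medulla and 161 more than 2-fold higher in the cortex, 0.629% and 0.798% of all probes. Only 2 probes differed by more than 2-fold in opposite directions in the 2 sections. Of the 127, 36 exceeded 4-fold and 12 exceeded 8-fold in both sections, and of the 161, 49 and 10 did. The main test called 8 of the 127 and 12 of the 161, against 0.178% of all probes. The fit on the sums of this arm alone called 116 and 160, against 412 of all 20175 probes. The lists were set from the same sums as that fit, so these counts are no separate support for them.

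The 127 medullary probes took 10.3% to 12.3% of the counts in the medullary segments, 1.01% and 1.07% in the cortical segments of section E1, and 3.58% and 4.67% in those of section E2. The 161 cortical probes took 6.42% to 8.19% in the cortical and 1.09% to 1.75% in the medullary segments. For the cortical list the sections overlapped in the cortical segments, whereas the medullary segments held 1.09% and 1.44% in section E1 and 1.63% and 1.75% in section E2. The medullary list included the probe with the most counts, RTS0080792, which carried a large part of its share. The other 126 probes took 4.90% to 6.08% in the medullary segments, 0.95% and 0.96% in the cortical segments of section E1, and 1.28% and 1.59% in those of section E2.

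RTS0080792 took 4.80% and 5.72% of all counts in the medullary segments of section E1 and 7.21% and 7.40% in those of section E2. In the cortex it took 0.06% and 0.107% in section E1 but 2.30% and 3.08% in section E2. All medullary segments were higher than all cortical segments, yet the medulla was 69.2-fold above the cortex in section E1 and 2.75-fold in section E2. The log2 fold change was 3.79 ± 3.66 (SE), and the adjusted p was 0.817 by edgeR.

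The cortical difference between the prefixes was seen in every injured arm. In the cortical segments of the E1 sections RTS0080792 stood at 11.9 to 247.8 CPM on days 1 and 7 and at 9.73 and 42.4 CPM in the vehicle arm on day 14, while those of the E2 sections stood at 7952 to 24440 CPM in these arms. Both control sections were low in the cortex, at 12.1 to 24.8 CPM, and held 6791 and 1439 CPM in their medullary segments. With entospletinib on day 14 the cortex reached 593.8 and 1087 CPM in section E1 and 25940 and 33920 CPM in section E2, the highest values of their prefixes. In the medulla of the vehicle arm on day 14 it held 190.6 to 14470 CPM, and with entospletinib 50300 to 84270 CPM, without overlap. The cause of the difference between the prefixes was not tested.

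**Figure D2:**
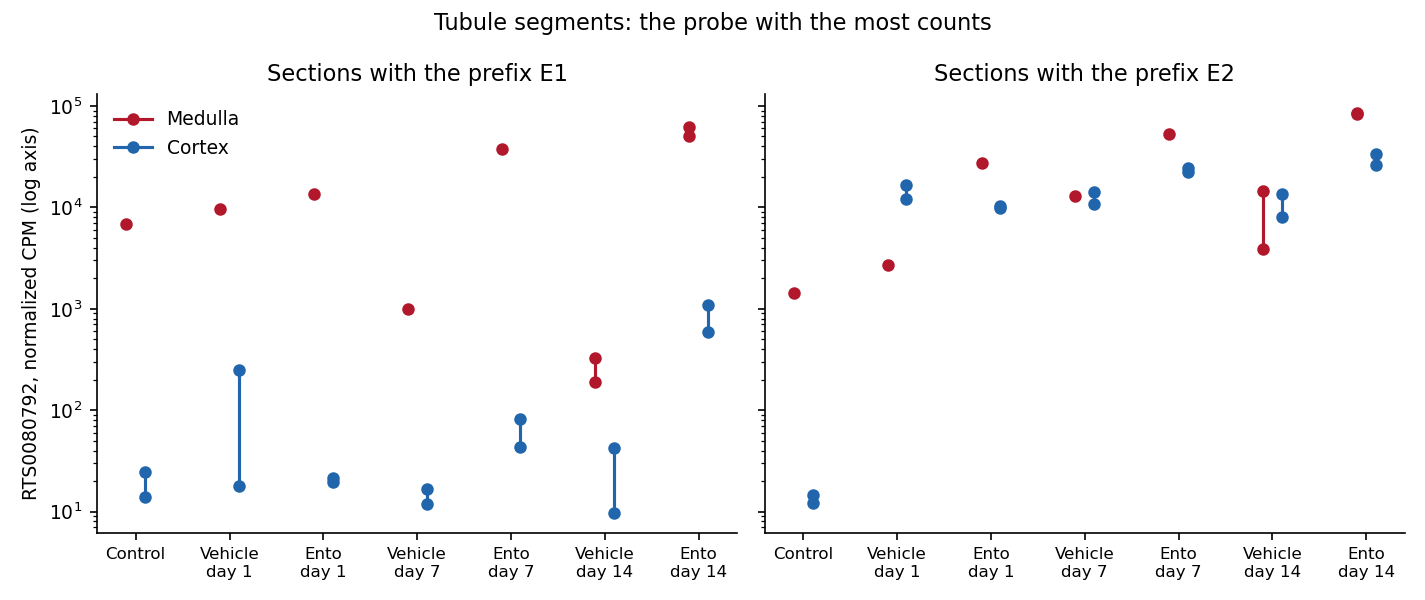
Normalized CPM of RTS0080792 (log axis) in the tubular segments of each arm, with the E1 sections on the left and the E2 sections on the right, and a line joining the lowest and highest segment of a region. Cortical segments (blue) of the E1 sections stay at or under 1087 CPM in all arms, whereas those of the injured E2 sections lie between 7952 and 33920 CPM.

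**Figure D3:**
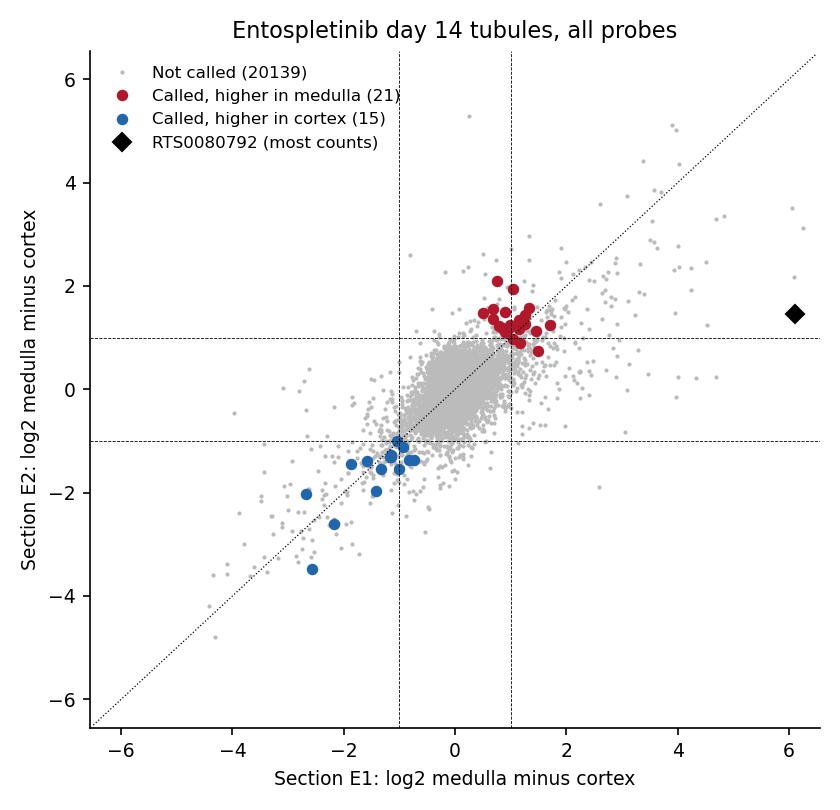
Log2 difference between medulla and cortex in section E1 (horizontal axis) and section E2 (vertical axis) for all 20175 probes, from the summed counts, with dashed lines at 2-fold and a dotted line of equality. The 21 and 15 called probes lie near the dotted line at moderate differences, and RTS0080792 lies far below it, at 6.11 in section E1 and 1.46 in section E2.

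Other probes were more than 2-fold apart in a single section. In section E1 but not section E2, 191 probes were more than 2-fold higher in the medulla and 72 were more than 2-fold higher in the cortex. Of these, 163 and 63 had the same direction in section E2. In section E2 but not section E1, 64 probes were more than 2-fold higher in the medulla and 133 in the cortex, of which 55 and 106 had the same direction in section E1. The median log2 difference between the sections (E2 minus E1) for the 191 probes was −0.52 in the medulla against 0.28 in the cortex. For the 133 probes it was −0.39 and 0.45. For the 72 probes it was 0.53 and −0.06, and for the 64 probes 0.84 and 0.07. The groups were set from these same values, so the directions follow in part from how they were chosen.

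The same contrast in the other arms shows how the called probes behave without entospletinib on day 14. The spread used for the calls was estimated over all arms, so these arms are not independent of the call. In the controls, the 21 medullary probes were all higher in the medulla by a median of 0.42 on the log2 scale, and the 15 cortical probes were all higher in the cortex, with a median of −0.50, while the median of all probes was 0.05. None of the 36 was called there, and edgeR called no probe in the controls (0%), with 804 at an unadjusted p under 0.05. The controls had 4 cortical and 2 medullary segments. On day 7 with entospletinib the medians were 0.56 and −1.002, with the same direction for all 36, and 0 and 2 were called the same way. The direction was less uniform in the other injured arms. It was the same for 12 of the 21 and 12 of the 15 in the vehicle arm on day 1, where 0 and 3 were called the same way and 1 of each list the opposite way. It was the same for 15 and 13 on day 1 with entospletinib, with no call in either direction, and for 16 and 13 in the vehicle arm on day 7, where 1 and 2 were called the same way. In the vehicle arm on day 14 the medians were 0.07, the median of all probes there, and −0.61, with the same direction for 14 of the 21 and 13 of the 15, and 1 and 2 were called the same way. In that arm 285 probes were called, 1.41% of all probes. Calls over all probes numbered 944 (4.68%) in the vehicle arm on day 1 and 38 (0.188%) in that on day 7. With entospletinib they numbered 0 on day 1 and 2 (0.00991%) on day 7.

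The cortical probes had the same direction in more of the other sections than the medullary probes, a difference that was not tested. All 12 sections of the other arms had the same direction for 7 of the 15 cortical probes and for 2 of the 21 medullary probes, against 1.45% and 0.585% of all probes. The median number of sections with the same direction was 11 for the cortical and 9 for the medullary probes. The wider lists showed the same, with 95 of the 161 cortical and 19 of the 127 medullary probes in the same direction in all 12 sections. The medullary list had a median log2 difference of 1.24 in the controls, 0.14 in the vehicle arm on day 1, 0.66 on day 7, and 0.28 on day 14, and of 0.74, 1.21, and 1.79 with entospletinib on days 1, 7, and 14. For the cortical list the medians were −1.09 in the controls, between −1.47 and −1.14 in the vehicle arms, and −0.84, −1.24, and −1.75 with entospletinib. The day 14 entospletinib values are those that set the lists. For the called probes, the spread was estimated over all arms, so agreement in the other sections follows in part from the call.

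**Figure D4:**
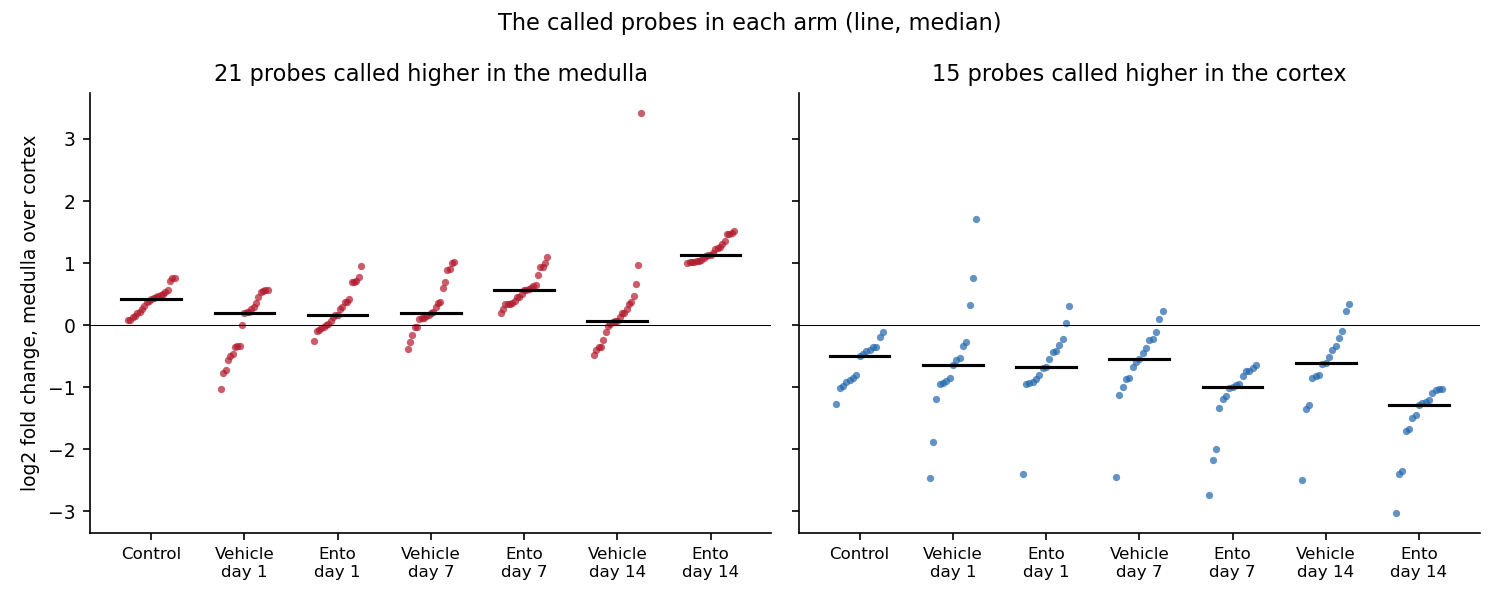
Log2 fold change of medulla over cortex (vertical axis) of the 21 probes called higher in the medulla (left) and the 15 called higher in the cortex (right) in each of the 7 arms, with a line at the median. The medullary probes center on 0.07 in the vehicle arm on day 14 and on 1.14 with entospletinib, where they were called, and the cortical probes center below 0 in every arm.

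Levels by region were set beside those of the controls for the vehicle and entospletinib arms, without a test of the levels between the arms. Relative to the controls, the 127 medullary probes had a median log2 difference of −1.13 in the medulla of the vehicle arm on day 14 and of 0.89 in that of the entospletinib arm, against −0.28 and 0.05 for all probes. In the cortex the medians were −0.08 and 0.22, against −0.26 and 0.03 for all probes. The 161 cortical probes had medians of −1.13 in the medulla and −0.84 in the cortex of the vehicle arm, and of −0.66 and −0.02 in the entospletinib arm. With entospletinib, cortical probes thus lay near the control level in the cortex and below it in the medulla. The 21 called medullary probes were all above the control mean in the medulla of the entospletinib arm, and 5 were in the vehicle arm. The 15 called cortical probes were all below the control mean in the medulla of the entospletinib arm, and 11 were above it in the cortex. All these lists were chosen on the regional difference of the entospletinib arm, so its levels follow in part from that choice. The vehicle arm took no part in the choice of the 127 and 161 probes. For the 21 and 15 called probes it entered the estimate of the spread, which all arms shared.

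The difference between the regions itself was then compared between entospletinib and vehicle on day 14, arms that share no segment. It differed for 117 probes, 0.58% of all probes (edgeR's quasi-likelihood test of the difference of both region effects, adjusted p under 0.05). Medulla over cortex was higher with entospletinib for 50 and lower for 67. With TMM scaling these numbers were 36 and 92. Of the wider lists, 0 of the 127 medullary and 2 of the 161 cortical probes passed this test. Of the called probes, 4 of the 21 and 2 of the 15 passed it. The 50 had a median log2 fold change of 0.67 with entospletinib, −0.82 with vehicle, and 0.17 in the controls, and 46 had opposite signs in the 2 day 14 arms. Their median level in the medulla was 5.15 log2 CPM with vehicle and 7.07 with entospletinib, against 6.55 in the controls, and their median level in the cortex was 6.04, 6.38, and 6.21. The 67 had a median log2 fold change of 0.06 with entospletinib, 1.52 with vehicle, and 0.05 in the controls. They stood at a median of 6.05 log2 CPM in the medulla of the vehicle arm, 4.32 in that of the entospletinib arm, and 4.22 in that of the controls, and between 4.04 and 4.47 in the cortex of all 3. By these medians the medulla of the vehicle arm stood apart from the other medullary and cortical sums. It lay above them for the 67 and below them for the 50. The probes were chosen on the region effects of the 2 day 14 arms, so extreme levels in these arms follow in part from the choice.

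The region effect of the controls was nearer to that of entospletinib than to that of vehicle for 44 of the 50 and 65 of the 67. These probes were chosen on the difference between entospletinib and vehicle. The effect was larger in size with vehicle for 31 of the 50 and 61 of the 67. An arm with small effects then lies nearer to entospletinib for many of them, so the nearness follows in part from the choice. It was not set against the share among all probes. Of the 117, 74 were also called between the regions in the vehicle arm and 6 in the entospletinib arm. Over all probes these shares were 1.41% and 0.178%. Choosing probes on the difference between these arms favors such calls, so the 74 and 6 follow in part from the choice. The summed counts of the medulla were 5401593 and 10864351 in the vehicle arm, below the 14254882 and 13292833 in the entospletinib arm. The number of probes fell to 21 without section E1 and 19 without section E2 of the entospletinib arm, and was 24 without section E1 and 387 without section E2 of the vehicle arm.

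**Figure D5:**
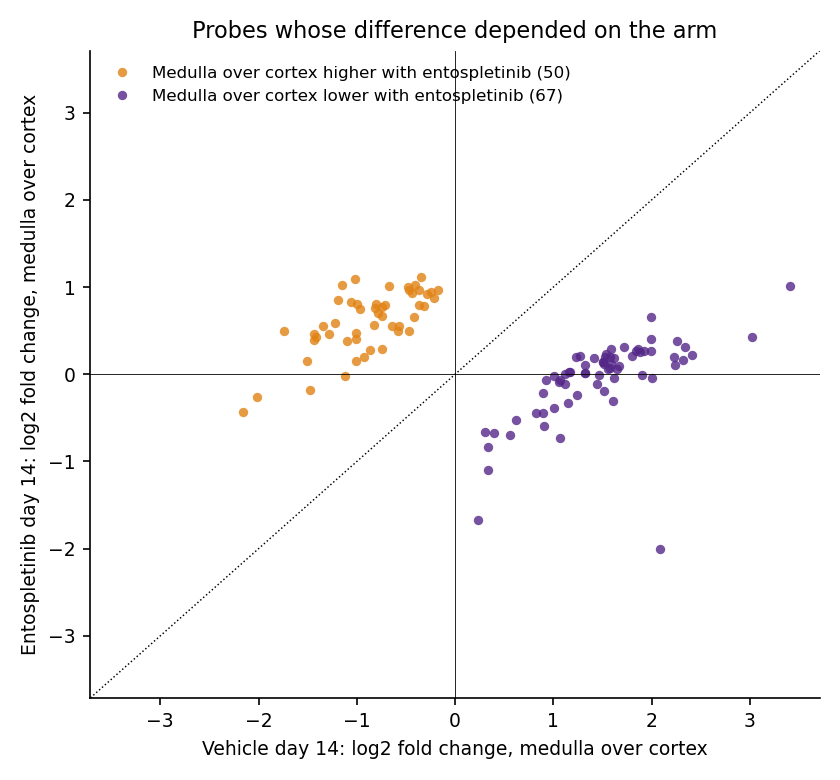
Log2 fold change of medulla over cortex with vehicle (horizontal axis) and with entospletinib (vertical axis) on day 14 for the 117 probes whose difference between the regions depended on the arm, with a dotted line of equality. The 50 probes higher with entospletinib center on −0.82 with vehicle and 0.67 with entospletinib, and the 67 lower ones center on 1.52 and 0.06.

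Among the named probes, RTS0080800 passed this test. In the vehicle arm its cortical segments stood at 9.67 to 20.8 CPM and its medullary segments at 12.4 to 28.8 CPM, so that the regions overlapped. In the controls the cortex stood at 52.4 to 73.6 CPM and the medulla at 23.1 to 42.6 CPM. The cortical segments of the entospletinib arm, at 48.8 to 107.8 CPM, overlapped those of the controls and lay above all those of the vehicle arm. The log2 difference between the region effects was −1.91, with an adjusted p of 0.00297 by edgeR. For RTS0066182, RTS0062791, and RTS0069692 it was 0.50, 0.64, and −1.08, with adjusted p of 0.711, 0.445, and 0.143 by edgeR, and in each the vehicle arm had the same direction.

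Against the controls, the region difference of the entospletinib arm differed for 0 probes (0%) by edgeR and for 0 by DESeq2. At an unadjusted p under 0.05 edgeR had 213 and DESeq2 118. With each section left out in turn there were 0 to 2. For the named probes the log2 difference from the controls was 0.98 for RTS0066182, 1.11 for RTS0062791, −0.70 for RTS0080800, and −0.90 for RTS0069692, each with an adjusted p of 1 by edgeR.

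Macrophage segments, positive for IBA1, were taken from the same regions and show how far the pattern was shared with another cell compartment. They were much shallower, at 58579 to 220585 counts. In these, 35 probes were higher in the medulla and 88 in the cortex, 0.864% of the 14228 probes with enough counts. In tubules, 34 of the 35 and all 88 had the same direction, with median log2 fold changes of 2.03 and −1.41, close to the 1.86 and −1.74 in the macrophage segments. Of all probes tested in macrophage segments, 56.7% had the same direction in tubules. Of the called tubular probes, 16 of the 21 and all 15 could be tested in macrophage segments, and 14 and 11 had the same direction there, with medians of 0.60 and −1.14, and 1 of each list was called the same way. Tubular and macrophage segments border each other in a region, so tubular RNA in the macrophage segments and a regional difference of the macrophages themselves cannot be told apart here.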

How the data were processed

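Counts of 94 DSP segments of mouse kidney were used. The values that the authors deposited are raw UMI counts for each probe, made from the reads by the GeoMx NGS Pipeline (version 3.1.1.5 in the file headers) and not normalized. These counts come before the authors' removal of probes and segments and before their aggregation of probes to genes. Segments were grouped by the labels. Tubular segments under 200000 counts were left out (2 of 48), and counts were summed per section and region, giving 28 sums over the 7 arms.

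A filter on low counts (filterByExpr of edgeR, with a count of 10 and a total of 15 as minimums) removed no probe in tubules. Sums were scaled by the upper quartile, as in the study, and tested with edgeR's robust quasi-likelihood test (version 4.0.16, R 4.3.3), with the section as a block and a region effect for each arm (21 coefficients, 7 residual degrees of freedom). P-values were adjusted by Benjamini-Hochberg over all probes tested. A call between regions needed more than a 2-fold difference and an adjusted p under 0.05, as in the study, a call between arms the adjusted p alone. The SE was taken as the size of the log2 fold change over the root of F. Log2 CPM used a prior count of 2. The section pairs the regions because both lie in the same tissue. The correlation across probes of the difference between the 2 sections in medulla with that in cortex was 0.051 to 0.586 over the 7 arms. Because the labels do not state that the sections of an arm come from separate mice, p-values measure the spread between sections.

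Probes to be named were the 2 per direction with the smallest p among called probes without overlap between regions, and the probe with the most counts. The comparison, lists, and tests were chosen with earlier results of these data known. Alternatives were TMM, DESeq2 (version 1.42.0) on sums or segments, limma-voom (version 3.58.1) with the section as a random effect, no block, no filter, other sets of arms, thinning, and leaving out sections or segments. Thinning for the comparisons between arms was added after the data were seen. Intervals cover counting error only.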

Additional observations from a re-analysis of the deposited data

Results flagged for a closer look

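The difference between medulla and cortex in tubules depended on the arm on day 14 for 117 probes by edgeR's test of the difference itself (adjusted p under 0.05), and RTS0080800 was the only named probe among them, with a log2 difference between the region effects of −1.91 (entospletinib minus vehicle). Its cortex was above its medulla in both sections with entospletinib, with log2 differences of −1.87 and −1.44, and it differed by −0.01 and 0.49 in the sections of the vehicle arm. No segment stood apart from the others of its group by the gap to its neighbor in 24 groups of 4 segments tested (levels of the named probes, totals, and shares of the lists). Each group held 2 segments of each section, so a gap between the sections, as for RTS0080792 in the cortex, is not flagged by this rule.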

How the results depend on the processing

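Against the 36 probes called between medulla and cortex, 69 passed on the adjusted p alone, 240 with DESeq2 on the sums, and 92 with all sums thinned to the lowest total. The fit on the sums of this arm alone gave 412, that on both day 14 arms 343, and taking segments as replicates gave 393 with edgeR, 456 with DESeq2, and 429 with limma-voom. These fits with segments treat segments of a section as separate, except limma-voom, whose correlation within a section was 0.442. Without the section block (an unpaired fit), 1 probe was called between the regions, 12 differed between the day 14 arms, and 41 were called in macrophage segments, in place of 36, 117, and 123. The 117 probes became 236 with DESeq2 on the sums, 1131 with segments as replicates in DESeq2, and, with thinning, 84, of which 61 were higher and 23 lower with entospletinib. Leaving out a single segment gave 27 to 44 probes for the region contrast. Leaving out a section of the entospletinib arm gave 3 to 15 probes for the region contrast, 19 to 21 for the difference from vehicle, and 1 for the difference from the controls in both cases, and leaving out a section of the other arm gave 24 to 387 and 0 to 2. With a section left out, the lone section of an arm was assumed to vary like the others. No log2 fold change of a named probe reversed. The calls of RTS0066182, RTS0062791, RTS0080800, and RTS0069692 were lost without the block (adjusted p by edgeR 0.098, 0.0996, 0.146, and 0.119), and DESeq2 on the sums gave no adjusted p for RTS0066182 and RTS0062791. The cause of these changes was not tested. With 2 sections per arm, each arm alone leaves 1 difference between sections, and in macrophage segments the depth kept 14228 of the 20175 probes.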

Other observations

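The cortical segment of section E1 that was left out, with 77621 counts, held 153 counts of the 36 called probes, of which 64.7% (95% exact binomial interval 56.6% to 72.3%) came from the 21 medullary probes. The kept segment with the same region number had 32.6% (31.7% to 33.5%), the 4 cortical segments used had 30.7% to 37.7%, and the 4 medullary segments had 75.7% to 84.3%. Of all its counts, 2.25% came from the 127 medullary probes of the wider list and 3.92% from the 161 cortical probes, values that lie between those of the medullary and cortical segments of section E1. The called probes were chosen on the other segments. Keeping this segment in its sum left 37 called probes in place of 36.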
